A study of Mus musculus with 36 samples.

Results

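The genes described here release calcium into the cytosol of the muscle fiber and pump it back. They are Cacna1s, Ryr1 and Jph1 of the triad, Casq1 and Casq2 of the calcium store, Pvalb of the cytosol, Atp2a1 and Atp2a2, which encode the SERCA pumps, and the pump regulators Sln and Pln. The 10 genes were chosen by symbol, each symbol being matched to its Ensembl ID in both deposited count tables, and they are 10 of the 51912 genes listed there. All 10 were found in both tables and passed the filter on low counts in every comparison. No rule on how they changed was used to choose them, but earlier results of these data were known at the time.

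RNA-seq had been done on the tibialis anterior (TA), a fast hindlimb muscle, and the soleus, a slower one, of wild-type (WT) and ∆Ig3-MuSK mice. The mice were 3-month-old males on the C57BL/6 background. ∆Ig3-MuSK mice are homozygous for a germline CRISPR-Cas9 deletion of Musk exons 6 and 7, which encode the third immunoglobulin-like (Ig3) domain of MuSK. This domain binds bone morphogenetic proteins (BMPs), and the deletion is present in all cells rather than in muscle fibers alone. The 4 groups, 1 for each genotype and muscle, have 9 libraries each. The comparisons ask whether the calcium handling genes differ between genotypes in each muscle, between the muscles, and whether the genotype difference depends on the muscle.

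In skeletal muscle an action potential runs down the T-tubules, where the voltage sensor CaV1.1 opens the ryanodine receptor RyR1 in the facing membrane of the sarcoplasmic reticulum. Calcium that calsequestrin had held in the lumen flows out and triggers contraction, and SERCA pumps then return it, with parvalbumin binding part of it in the meantime. Fast fibers use SERCA1, Casq1 and much parvalbumin, whereas slow fibers, like heart muscle, use SERCA2a and also hold Casq2.

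Sln and Pln are unusually short coding genes, and their coding sequences, from GENCODE M21 on GRCm38, are given to show the size of the regulators whose transcripts are compared below. Sarcolipin is encoded at chr9:53853473-53853568 on the plus strand, in 96 bases with 31 codons before the stop. Phospholamban is encoded at chr10:53343864-53344022 on the plus strand, in 159 bases with 52 codons before the stop. Capitals mark the start and the stop codon.
Sln: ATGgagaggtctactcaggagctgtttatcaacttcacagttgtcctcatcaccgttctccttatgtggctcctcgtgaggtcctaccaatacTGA
Pln: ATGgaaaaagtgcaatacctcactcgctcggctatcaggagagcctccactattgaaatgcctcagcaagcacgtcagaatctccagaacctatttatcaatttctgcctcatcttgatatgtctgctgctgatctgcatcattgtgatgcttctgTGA

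The promoters of the calsequestrin pair and of Pvalb are given because Casq2 was higher in the soleus, whereas Casq1 and Pvalb were lower. Each run is the 250 bases before the RefSeq start site in GRCm38.p6, read 5′ to 3′ on the strand of the gene. Capitals mark matches to the E-box (CANNTG, the same on both strands), the site of myogenic helix-loop-helix factors, and to a MEF2 motif searched on both strands. These motif matches do not overlap each other. An E-box was found in 66.2% and the MEF2 motif in 2.92% of all 32851 RefSeq promoter windows of this length, so the presence of an E-box sets no gene apart. The Casq1 window, chr1:172219896-172220145 on the minus strand, holds CAGCTG and CAGGTG, starting at positions -195 and -67 from the start site. The Casq2 window, chr3:102086165-102086414 on the plus strand, holds CACTTG at -200, CAACTG at -52 and the MEF2 match TTATTTTTAG at -69. The first Pvalb window, chr15:78206401-78206650 on the minus strand, holds no E-box and has the MEF2 match TTATTAATAG at -180. A second Pvalb window, not printed here, holds the E-box CATGTG at -111 and no MEF2 match. A match describes the letters alone, and no binding was measured. Of the 10 genes, 7 had a promoter window, and Sln, Atp2a2 and Jph1 did not.
Casq1: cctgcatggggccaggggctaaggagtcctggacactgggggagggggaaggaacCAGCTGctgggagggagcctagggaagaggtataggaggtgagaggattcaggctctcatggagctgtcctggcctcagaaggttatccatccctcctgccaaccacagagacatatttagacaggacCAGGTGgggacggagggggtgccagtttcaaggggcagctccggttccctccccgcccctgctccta
Casq2: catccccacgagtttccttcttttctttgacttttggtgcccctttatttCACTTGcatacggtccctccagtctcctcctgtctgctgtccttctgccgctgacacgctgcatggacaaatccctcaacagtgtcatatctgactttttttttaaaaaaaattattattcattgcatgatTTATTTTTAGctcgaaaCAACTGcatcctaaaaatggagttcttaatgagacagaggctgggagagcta
Pvalb: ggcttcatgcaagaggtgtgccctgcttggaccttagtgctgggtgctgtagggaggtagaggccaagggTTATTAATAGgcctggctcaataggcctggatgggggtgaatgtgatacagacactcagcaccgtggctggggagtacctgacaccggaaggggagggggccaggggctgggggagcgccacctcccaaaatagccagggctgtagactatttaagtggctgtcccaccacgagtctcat

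Library totals, as the sum of reads assigned to genes, lay between 43492062 and 78660422. No libraries were duplicates of each other. The muscles' labels held for their fiber markers: the summed level of 6 slow-fiber genes was at most 130 CPM (a gene's reads relative to the scaled total of its library) in TA libraries and at least 15204 CPM in soleus libraries. The summed level of 7 fast-fiber genes was 56357 to 76306 CPM in TA and 13505 to 32494 CPM in soleus. Myh7, the slow myosin heavy chain, stood at 2.0 to 38.2 CPM in the TA and at 6529 to 10679 CPM in the soleus. WT soleus replicates 1 and 2 were the richest of their group in Myh4, the fastest myosin heavy chain, at 6102 and 4085 CPM against a group median of 1278 CPM. WT TA replicates 3 and 5 were low in long transcripts. For them, the median deviation of genes with transcripts over 7000 bases minus that of genes with transcripts under 1500 bases (here the length index) was -0.76 and -0.96 on the log2 scale. It was also low in ∆Ig3-MuSK TA replicate 3, at -0.36. In the TA the index also went with genotype. The other ∆Ig3-MuSK TA libraries ran from 0.12 to 0.30, and the highest WT TA library was at 0.19. Musk itself was at a median of 3.84 CPM in WT and 3.11 CPM in ∆Ig3-MuSK TA, and at 14.5 CPM in WT and 10.4 CPM in ∆Ig3-MuSK soleus. The difference was -0.46 (SE 0.117) on the log2 scale in the TA and -0.44 (SE 0.133) in the soleus, and neither passed the test (edgeR's quasi-likelihood test, adjusted p = 0.135 and 0.0978). Counts summed over a gene do not show whether 2 of its exons are gone, so they do not check the genotype labels.

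The soleus and the TA differed in 8 of the 10 calcium genes in WT mice, 4 being higher and 4 lower in the soleus. The slow-muscle forms, Atp2a2, Casq2, Sln and Pln, were higher in the soleus, and the fast-muscle forms, Atp2a1, Casq1 and Pvalb, were lower, as was Jph1. Ryr1 and Cacna1s, which form the release apparatus itself, did not pass the test. The same 8 genes passed in ∆Ig3-MuSK mice with the same directions. A gene was called at a Benjamini-Hochberg adjusted p under 0.05 in edgeR's quasi-likelihood test with at least a 1.2-fold change. By this rule 57.5% of the 20841 genes tested were called in WT (30.2% higher and 27.3% lower in the soleus) and 56.1% in ∆Ig3-MuSK (28.5% higher and 27.6% lower). A call between these muscles was therefore common, and what sets the genes apart from each other is the size of their differences. The median log2 difference of the 10 genes was 0.11 in WT, beside 0.02 over all genes, and -0.07 in ∆Ig3-MuSK, beside -0.00. The libraries hold the RNA of whole muscles, so fewer fibers of a type and less transcript per fiber cannot be told apart. The levels of all 10 genes in each library are plotted on log axes, each gene with its own axis range.

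**Figure D1:**
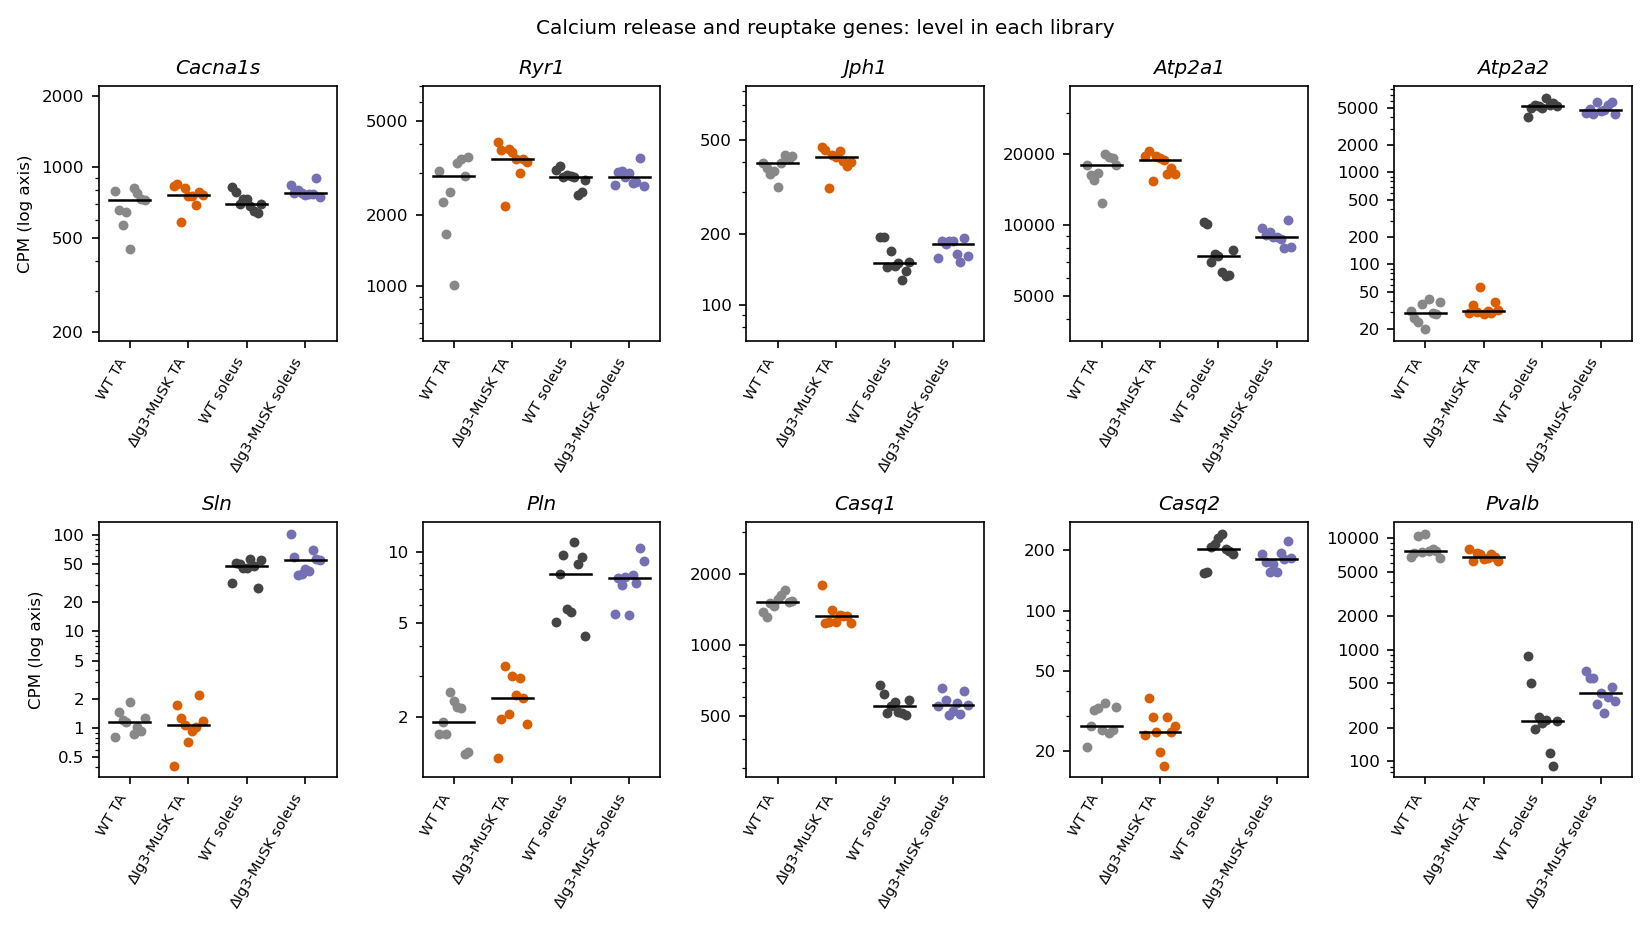
Level of each of the 10 genes in CPM (log axis) in every library, with 1 point per library and the 4 groups side by side, 9 libraries in each. The soleus and TA points of 8 genes lie apart, whereas those of Ryr1 and Cacna1s overlap.

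Atp2a1 encodes SERCA1, the pump of fast fibers. Its level was 12483 to 20128 CPM in WT TA (median 17991) and 6082 to 10330.4 CPM in WT soleus (median 7416). In ∆Ig3-MuSK mice it was 15389 to 20740.4 CPM in the TA (median 18899.6) and 8036 to 10496 CPM in the soleus (median 8950.4). Every soleus library lay below every TA library in each genotype. The soleus had 2.23-fold less Atp2a1 than the TA in WT (log2 difference -1.16, SE 0.0992, adjusted p = 6.00e-13) and 2.00-fold less in ∆Ig3-MuSK.

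Atp2a2 encodes SERCA2, whose SERCA2a form is the pump of slow fibers and the heart, and the counts sum its isoforms. WT TA libraries held 19.7 to 42.1 CPM (median 29.8) and WT soleus libraries 3994 to 6523 CPM (median 5331). The ∆Ig3-MuSK TA held 29.2 to 57.4 CPM (median 30.9) and the ∆Ig3-MuSK soleus 4320.1 to 5882 CPM (median 4773). This was the greatest difference between the muscles among the 10 genes, 175-fold in WT (95% confidence interval 139 to 219; log2 difference 7.45, SE 0.163, adjusted p = 7.86e-31) and 143-fold in ∆Ig3-MuSK. Atp2a1 nevertheless stayed the more abundant pump transcript of the soleus. Per kilobase of the longest transcript, the level of Atp2a1 in WT soleus was 2202 ± 458 CPM per kb (SD, n = 9) and that of Atp2a2 was 937 ± 119 CPM per kb. Atp2a2 thus made up 30.5% ± 6.25 of the SERCA transcripts of these 2 genes in WT soleus, between 19.2% and 38.6% in single libraries, and 25.1% ± 2.49 in ∆Ig3-MuSK soleus (SD, n = 9). In the TA its share was 0.109% ± 0.0185 in WT and 0.117% ± 0.0273 in ∆Ig3-MuSK.

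Sln encodes sarcolipin, which binds SERCA and lowers the calcium carried for each ATP. It was scarce in the TA, at 0.806 to 1.87 CPM in WT (median 1.16) and 0.409 to 2.18 CPM in ∆Ig3-MuSK (median 1.07). In the soleus it was 28.5 to 56.0 CPM in WT (median 47.9) and 38.1 to 102 CPM in ∆Ig3-MuSK (median 54.8), with the 102 CPM in replicate 1. The soleus level was 39.5-fold that of the TA in WT (95% confidence interval 28.8 to 54.2; log2 difference 5.30, SE 0.225, adjusted p = 7.58e-22) and 48.3-fold in ∆Ig3-MuSK. Pln encodes phospholamban, which holds SERCA2 back until it is phosphorylated. It was 1.41 to 2.57 CPM in WT TA (median 1.91) and 4.41 to 11.1 CPM in WT soleus (median 8.08). In ∆Ig3-MuSK mice it was 1.35 to 3.31 CPM in the TA (median 2.42) and 5.43 to 10.4 CPM in the soleus (median 7.78). The groups did not overlap between muscles, and the difference was 3.97-fold in WT (log2 1.99, SE 0.174, adjusted p = 9.86e-13) and 3.23-fold in ∆Ig3-MuSK. Of these 2 regulators, Sln had the more abundant transcript in the soleus. Per kilobase, Sln was at 34.6 ± 7.29 and Pln at 3.25 ± 1.03 CPM per kb in WT soleus (SD, n = 9), whereas in WT TA they stood at 0.892 ± 0.251 and 0.831 ± 0.175 CPM per kb. Pln shares 1644 exon bases with Gm47644 on the opposite strand, where reads without strand cannot be told apart, and Sln shares none. How far this changed the counted level of Pln was not tested.

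Casq1 and Casq2 encode calsequestrin, the calcium-binding protein of the reticulum lumen, in its skeletal and its cardiac and slow-fiber form. Casq1 was 1318 to 1708 CPM in WT TA (median 1516) and 505 to 678 CPM in WT soleus (median 553.3). Its ∆Ig3-MuSK levels were 1239.5 to 1795 CPM in the TA (median 1322) and 506 to 658 CPM in the soleus (median 555). The soleus had 2.66-fold less Casq1 in WT (log2 difference -1.41, SE 0.0720, adjusted p = 1.92e-19) and 2.37-fold less in ∆Ig3-MuSK. Casq2 went the other way. It was 20.999 to 34.6 CPM in WT TA (median 26.6) and 154 to 241 CPM in WT soleus (median 204), with 16.9 to 36.9 CPM (median 24.98) and 155 to 223 CPM (median 181) in the ∆Ig3-MuSK muscles. It was 7.12-fold higher in the soleus in WT (log2 difference 2.83, SE 0.118, adjusted p = 4.63e-22) and 7.05-fold higher in ∆Ig3-MuSK. Per kilobase Casq1 stayed the major calsequestrin of both muscles, and Casq2 made up 20.6% ± 3.67 of the pair in WT soleus and 1.34% ± 0.217 in WT TA (SD, n = 9). The share of Casq2 was 18.8% ± 1.74 in ∆Ig3-MuSK soleus and 1.39% ± 0.382 in ∆Ig3-MuSK TA.

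Pvalb encodes parvalbumin, the cytosolic calcium buffer that speeds relaxation of fast fibers. It was 6658 to 10817 CPM in WT TA (median 7576) and 6237 to 7983 CPM in ∆Ig3-MuSK TA (median 6775). In WT soleus it was 91.5 to 874 CPM (median 229), the widest spread of the 10 genes, with 874 CPM in replicate 1 and 504 CPM in replicate 2. The ∆Ig3-MuSK soleus held 273 to 647 CPM (median 411). The soleus level was 26.5-fold below the TA level in WT (log2 difference -4.73, SE 0.294, adjusted p = 6.96e-17) and 15.6-fold below it in ∆Ig3-MuSK (log2 difference -3.96, SE 0.283). Without WT soleus replicates 1 and 2 the WT difference was -5.38 (SE 0.212) on the log2 scale.

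The triad genes were the most even across the muscles. Ryr1 encodes the release channel, and its level was 1007 to 3524 CPM in WT TA (median 2909) and 2438 to 3209.8 CPM in WT soleus (median 2900.4). It was 2178 to 4082 CPM in ∆Ig3-MuSK TA (median 3460.2) and 2641 to 3493 CPM in ∆Ig3-MuSK soleus (median 2889). The ranges overlapped, and the soleus minus TA difference was 0.14 on the log2 scale in WT (95% confidence interval -0.15 to 0.43, adjusted p = 0.400) and -0.22 in ∆Ig3-MuSK (95% confidence interval -0.50 to 0.07, adjusted p = 0.179). Cacna1s encodes the pore-forming subunit of the voltage sensor, and its level was 451 to 817 CPM in WT TA (median 726) and 642 to 822 CPM in WT soleus (median 701). It was 585 to 849 CPM in ∆Ig3-MuSK TA (median 761) and 746 to 902 CPM in ∆Ig3-MuSK soleus (median 776). The difference between muscles was 0.08 in WT (95% confidence interval -0.08 to 0.24, adjusted p = 0.366) and 0.08 in ∆Ig3-MuSK (95% confidence interval -0.09 to 0.24, adjusted p = 0.412). These intervals leave room for differences of up to 0.43 (Ryr1) and 0.24 (Cacna1s) on the log2 scale in WT, so equal levels were not shown. Without WT TA replicates 3 and 5, low in long transcripts, the WT difference turned from higher to lower in the soleus for both, to -0.06 for Ryr1 and -0.03 for Cacna1s.

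Jph1 encodes junctophilin 1, which ties the T-tubule to the reticulum, and unlike the 2 channels it differed between the muscles. It was 315 to 428 CPM in WT TA (median 396) and 127 to 194 CPM in WT soleus (median 151). In ∆Ig3-MuSK mice it was 313 to 464 CPM in the TA (median 423) and 151 to 192 CPM in the soleus (median 180.5). The groups of the 2 muscles did not overlap, and the soleus had 2.43-fold less Jph1 in WT (log2 difference -1.28, SE 0.0769, adjusted p = 2.49e-17) and 2.36-fold less in ∆Ig3-MuSK. In all, 8 of the 10 genes had no overlap between the muscles in each genotype, where 28.4% of all genes tested had none in WT and 29.5% in ∆Ig3-MuSK.

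**Figure D2:**
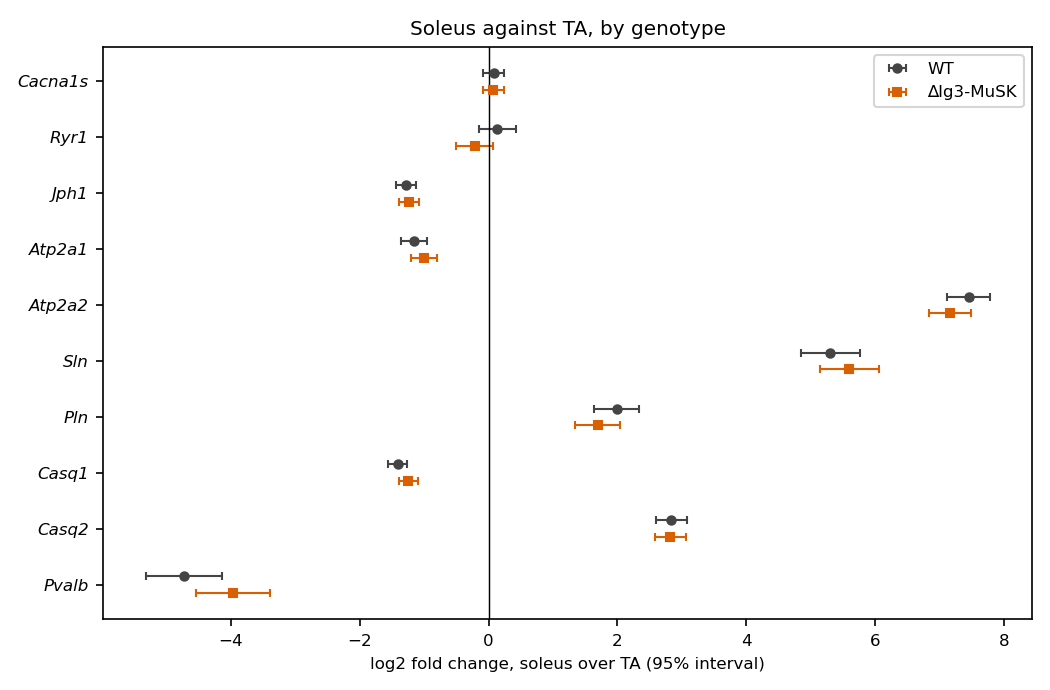
Log2 difference of soleus minus TA for each of the 10 genes in WT and in ∆Ig3-MuSK mice, with 95% confidence intervals from the fit over 36 libraries. Atp2a2 and Sln lie farthest to the soleus side and Pvalb farthest to the TA side, and the intervals of Ryr1 and Cacna1s span 0 in both genotypes.

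Compared per kilobase, the genes fell in another order in each muscle. In WT TA, Pvalb was the most abundant at 8265 ± 1526 CPM per kb (SD, n = 9), ahead of Atp2a1 at 4975 ± 681 and Casq1 at 819.6 ± 64.8 CPM per kb. Ryr1 (171 ± 56), Cacna1s (109.7 ± 18.9) and Jph1 (80.4 ± 7.61) followed, and Casq2, Atp2a2, Sln and Pln were each at or under 11.1 CPM per kb. Together, Pvalb and Atp2a1 made up 56.9% and 34.7% of the summed level per kilobase of the 10 genes. In WT soleus Atp2a1 came first, with 52.1% of the sum, then Atp2a2 with 23.0%, Casq1 with 7.30%, Pvalb with 6.81%, Ryr1 with 4.47% and Cacna1s with 2.76%. Neighbors in this order of WT soleus whose spreads overlapped were Pvalb (309 ± 249.8 CPM per kb) and Casq1 (305 ± 31.4 CPM per kb), and Sln (34.6 ± 7.29 CPM per kb) and Jph1 (32.7 ± 4.87 CPM per kb). The wide spread of Pvalb also took in Ryr1 (186 ± 16.5 CPM per kb), Cacna1s (115 ± 9.29 CPM per kb) and Casq2 (78.2 ± 11.6 CPM per kb). In WT TA they were Ryr1 and Cacna1s, and Sln and Pln. Division by the longest transcript does not account for which isoform was made, or for exon bases shared with a gene on the opposite strand.

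In the TA, none of the 10 calcium genes passed the test between genotypes. The differences were small: the greatest was that of Ryr1, at 0.38 on the log2 scale, and those of Atp2a1 and Sln were 0.09 and 0.01. With edgeR, 0 of 10 were called and 3 had an unadjusted p under 0.05, and DESeq2 and limma-voom also called 0, with 3 each under the unadjusted threshold. Of all 20075 genes tested in the TA, edgeR called 0.0149% (3 genes), and 24.1% had an unadjusted p under 0.05. Over all genes DESeq2 called 165 and limma-voom 150. The median log2 difference was 0.09 over the 10 genes and -0.00 over all genes. In every one of the 10 genes the ranges of the genotypes overlapped, as they did in all but 0.0299% of genes.

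The TA genes with an unadjusted p under 0.05 were Ryr1, Pvalb and Casq1. Ryr1 was above the WT median in 8 of 9 ∆Ig3-MuSK libraries, with a difference of 0.38 (SE 0.182, 95% confidence interval 0.01 to 0.76, adjusted p = 0.201). The lowest WT libraries were replicate 5, at 1007 CPM, and replicate 3, the same that were low in long transcripts, and Ryr1 has the longest transcript of the 10 genes, 15358 bases. With the length index as a covariate the Ryr1 difference was -0.03, and without WT TA replicates 3 and 5 it was 0.20. Cacna1s changed in the same manner, from 0.16 (SE 0.0977, adjusted p = 0.316) to -0.06 with the covariate and 0.06 without the 2 libraries. Most ∆Ig3-MuSK TA libraries had a higher index than any WT one. The covariate and the genotype therefore cannot be fully told apart, here and in the other TA fits with it. The plot of these genes against the length index shows how closely the libraries followed it.

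**Figure D3:**
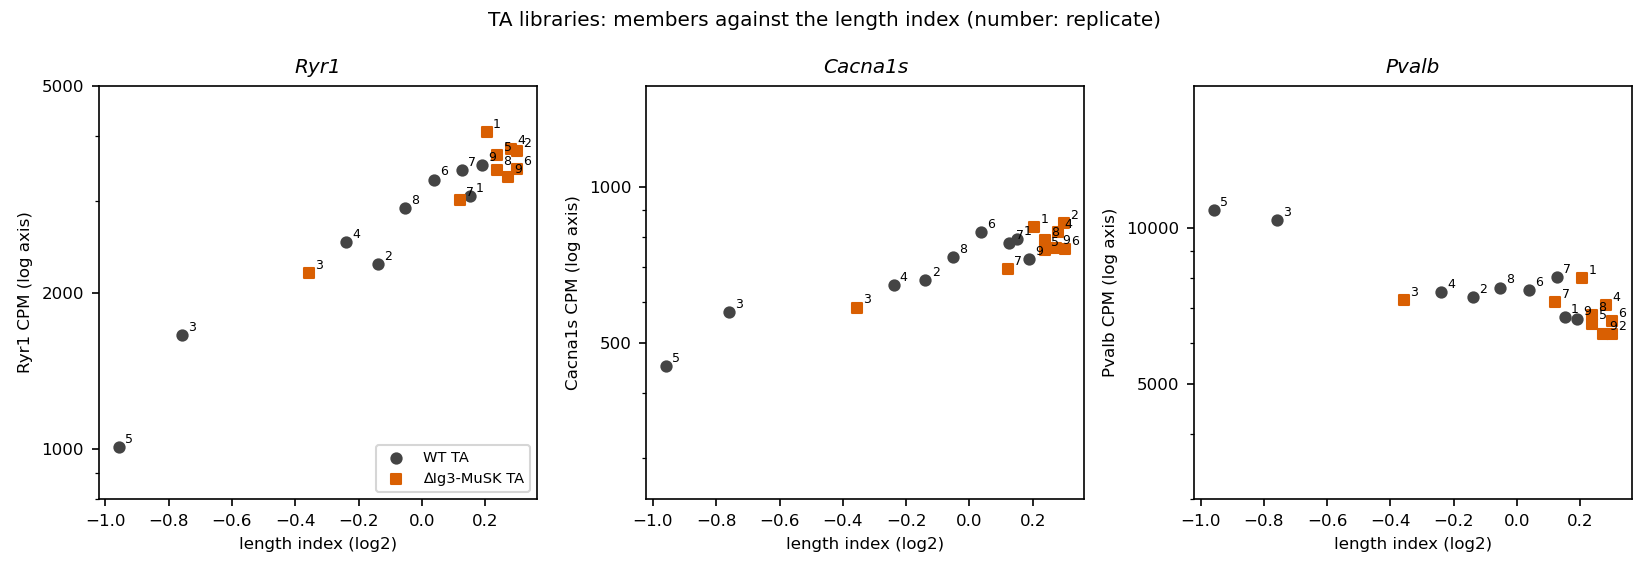
CPM (log axis) of Ryr1, Cacna1s and Pvalb in the 18 TA libraries against the length index of the library (log2), with WT and ∆Ig3-MuSK libraries as separate points. WT replicates 3 and 5, at index values of -0.76 and -0.96, have the lowest Ryr1 levels among the WT libraries.

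Pvalb was above the WT median in 1 of 9 ∆Ig3-MuSK TA libraries, with a difference of -0.22 (SE 0.0934, 95% confidence interval -0.42 to -0.03, adjusted p = 0.173). Its highest WT level, 10817 CPM, was in replicate 5, and the difference was -0.03 with the length index as a covariate and -0.09 without WT TA replicates 3 and 5. Casq1 was also above the WT median in 1 of 9 ∆Ig3-MuSK libraries, with a difference of -0.15 (SE 0.0733, adjusted p = 0.203), which was -0.14 without the same 2 libraries. Among the pump regulators, Pln differed by 0.31 (SE 0.155, 95% confidence interval -0.02 to 0.63, adjusted p = 0.226), and Sln by 0.01 with a wide interval of -0.47 to 0.49 (0.720-fold to 1.40-fold). Atp2a2 differed by 0.18 (SE 0.144, adjusted p = 0.424), and by 0.06 without ∆Ig3-MuSK TA replicate 4. Casq2 differed by -0.13 (SE 0.122, adjusted p = 0.517; -0.07 without ∆Ig3-MuSK TA replicate 6 and -0.20 without replicate 2 of that group). Jph1 differed by 0.10 (adjusted p = 0.365; 0.07 without WT TA replicate 5) and Atp2a1 by 0.09 (adjusted p = 0.551; 0.03 without WT TA replicate 5).

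In the soleus, too, none of the 10 genes passed the test between genotypes. Of the fast-muscle forms, Atp2a1 and Pvalb had positive differences, and Casq1 had one of -0.00. Every one of the 9 ∆Ig3-MuSK libraries was above the WT median in Atp2a1, Pvalb, Cacna1s and Jph1, and 5 of 9 were in Casq1. With edgeR, 0 of 10 were called and 2 (Cacna1s and Atp2a1) had an unadjusted p under 0.05. DESeq2 called 0 with 2 under that threshold, and limma-voom with quality weights called 1, Atp2a1, with 5 under it. With edgeR, 0.952% of all 19439 genes tested were called (185 genes, 0.365% higher and 0.586% lower), and 18.5% had an unadjusted p under 0.05. Over all genes DESeq2 called 488 and limma-voom 653, and their shares under the unadjusted threshold were not counted. The median log2 difference was 0.08 over the 10 genes and -0.00 over all genes. The ranges of the genotypes overlapped for each of the 10 genes, and did not for 0.072% of all genes.

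**Figure D4:**
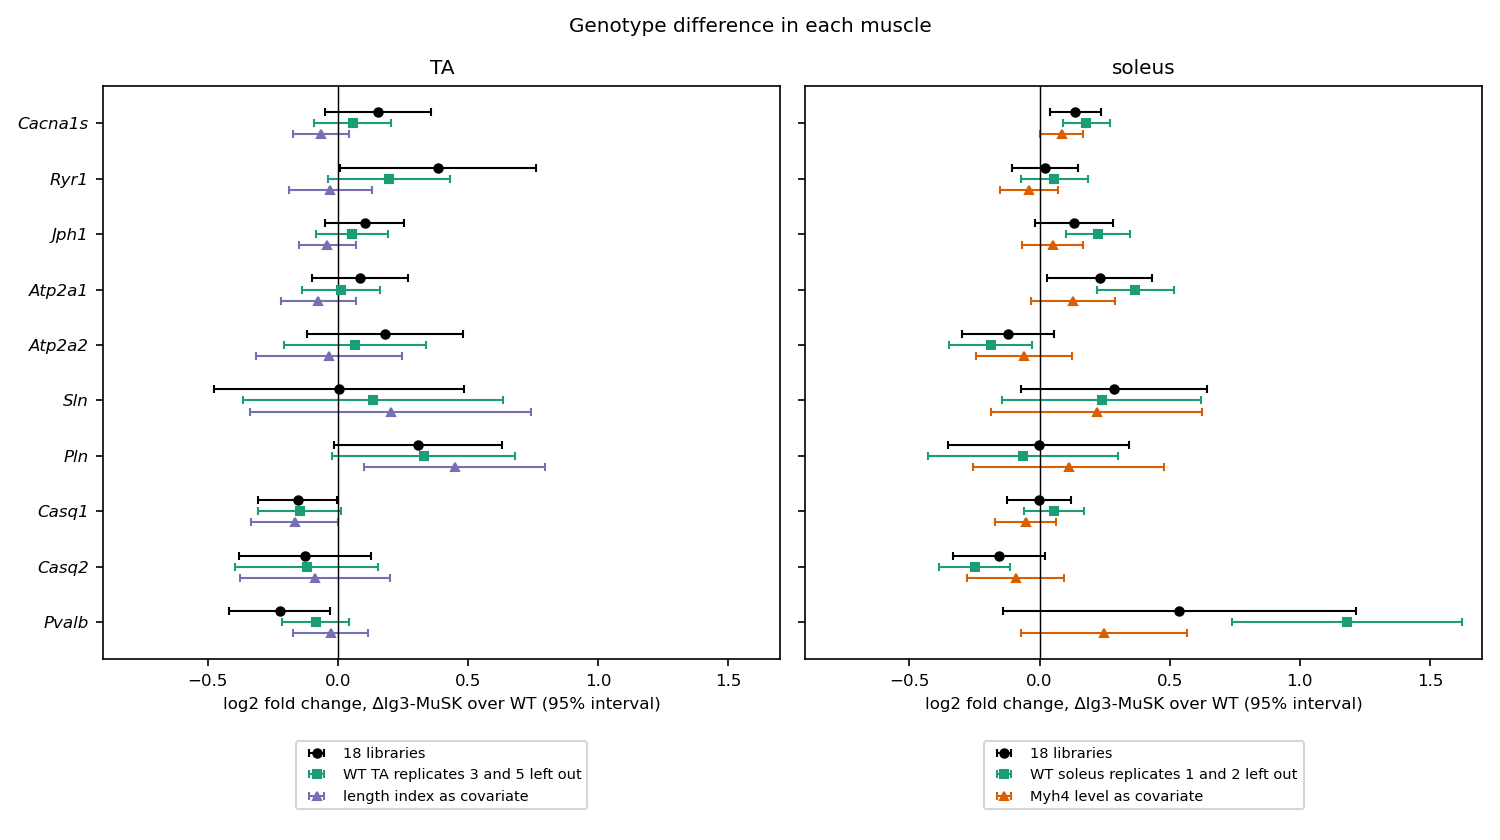
Log2 difference of ∆Ig3-MuSK minus WT for each of the 10 genes, TA and soleus shown separately, with 95% confidence intervals (edgeR, 9 against 9 libraries). In these fits of 9 against 9 libraries no gene was called in either muscle. Among their intervals that of Pvalb in the soleus, from -0.14 to 1.21, is the widest. Without WT soleus replicates 1 and 2, Pvalb and Atp2a1 were called in the soleus, among 1240 of all genes tested.

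Cacna1s had the smallest unadjusted p of the 10 genes in the soleus, 0.00872, with a difference of 0.14 (SE 0.0472, 95% confidence interval 0.04 to 0.24, adjusted p = 0.130). Atp2a1 differed by 0.23 (SE 0.0975, 95% confidence interval 0.03 to 0.43, adjusted p = 0.211), from a mean of 7656 ± 1592 CPM in WT to 9053 ± 767 CPM in ∆Ig3-MuSK (SD, n = 9). The WT spread came from the top of the group, where replicates 1 and 2 held 10330.4 and 10142 CPM. Pvalb differed by 0.54 (SE 0.325, 95% confidence interval -0.14 to 1.21, adjusted p = 0.393), from 302 ± 244 CPM in WT to 439.7 ± 127 CPM in ∆Ig3-MuSK. The interval of Pvalb runs from a slight decrease to 2.32-fold more.

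The Pvalb and Atp2a1 results in the soleus rested on WT replicates 1 and 2, the libraries that were also highest in Myh4. Without both, Pvalb was called at 1.18 (SE 0.211, adjusted p = 0.00308) and Atp2a1 at 0.37 (SE 0.0703, adjusted p = 0.00437). Without replicate 1 alone, Pvalb was called at 0.92. Calls over all genes also increased, from 185 with all 18 libraries to 1240 without both and 602 without replicate 1 alone. With the log2 level of Myh4 as a covariate in all 18 libraries, the differences were 0.25 (adjusted p = 0.596) and 0.13 (adjusted p = 0.590). These choices were made after the values had been seen, and removing high WT libraries raises such a difference by construction. Myh4 itself was 151 to 6102 CPM in WT soleus and 251 to 4897 CPM in ∆Ig3-MuSK soleus, with a difference of 0.57 (SE 0.635, adjusted p = 0.669). The summed level of the 7 fast-fiber genes had a median of 18357 CPM in WT and 24220 CPM in ∆Ig3-MuSK soleus with overlapping ranges, 0 of the 7 were called, and the median of their log2 differences was 0.27.

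**Figure D5:**
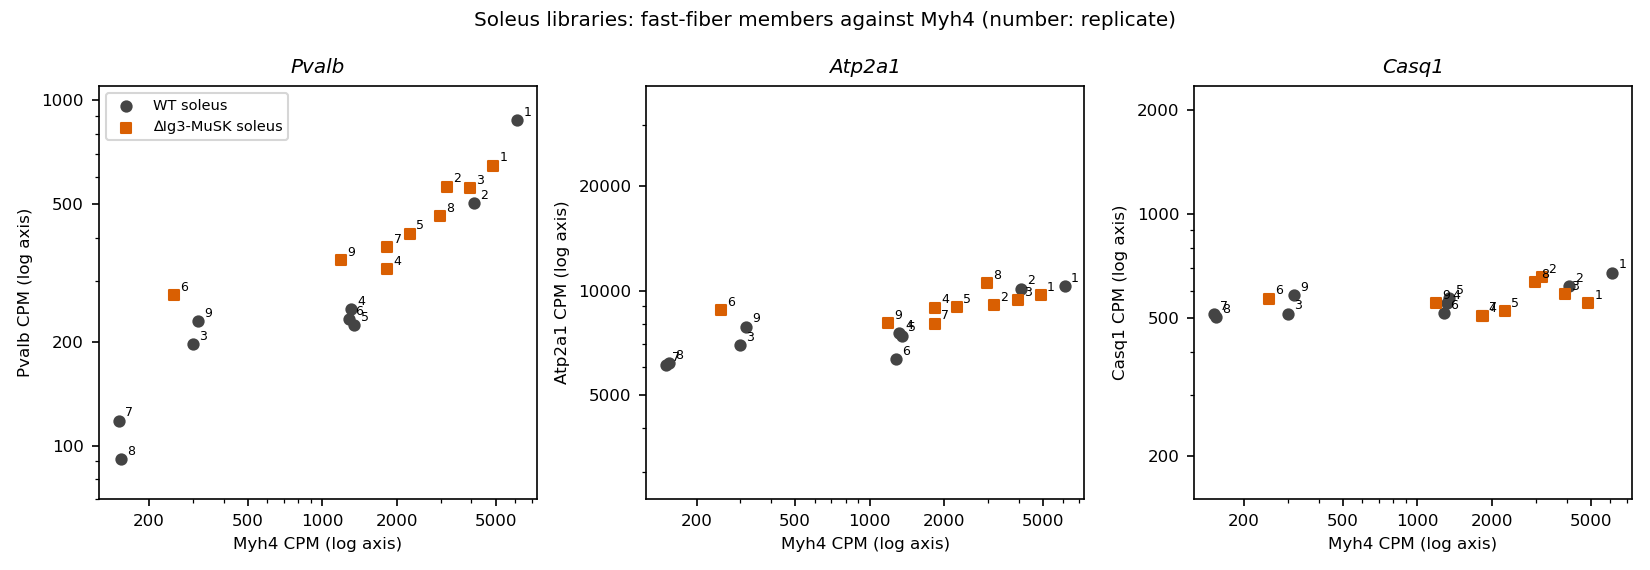
CPM of Pvalb, Atp2a1 and Casq1 against CPM of Myh4 (log axes) in the 18 soleus libraries, WT and ∆Ig3-MuSK shown as separate points. In both genotypes Pvalb increased with Myh4, and WT replicates 1 and 2 lie at the upper end of the WT points.

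Of the other genes in the soleus, Sln differed by 0.28 (SE 0.172, 95% confidence interval -0.07 to 0.64, adjusted p = 0.391). Without ∆Ig3-MuSK soleus replicate 1, its highest library, the Sln difference was 0.13, and limma-voom with quality weights gave 0.14. Jph1 differed by 0.13 (SE 0.0720, adjusted p = 0.334). Of the slow-muscle forms, Casq2 and Atp2a2 had negative differences of -0.15 (SE 0.0851, adjusted p = 0.345) and -0.12 (SE 0.0851, adjusted p = 0.468). The slow-muscle forms Sln and Pln did not share this direction. Ryr1 stood at 0.02 (adjusted p = 0.895), and Casq1 and Pln at -0.00 each (adjusted p = 0.990 and 0.994). The interval for Casq1, -0.13 to 0.12, lies within 1.2-fold in either direction, and that for Pln, -0.35 to 0.34, does not. Atp2a2 and Casq2 are also expressed by smooth muscle and heart cells. The summed level of 6 smooth muscle genes was 195 to 236 CPM in WT and 146 to 213 CPM in ∆Ig3-MuSK soleus, where Acta2 was lower by -0.38 on the log2 scale (adjusted p = 0.0496). Among heart genes, Myh6, which slow fibers can also express, was at 564 to 823 CPM in WT and 516 to 876 CPM in ∆Ig3-MuSK soleus, while Nppb and Myl7 were at or under 0.0448 CPM in every library. The 6 neuron genes summed to 5.18 to 7.52 CPM in WT and 5.21 to 9.54 CPM in ∆Ig3-MuSK soleus, with Syt1 (0.84, adjusted p = 0.0390) and Gad1 (0.93, adjusted p = 0.0323) higher. Neurons can express Pvalb as well, and the part of these cells in the results was not tested.

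Whether the genotype difference depended on the muscle was tested directly, and 0 of the 10 genes passed. Over all 20841 genes edgeR called 0.0%, with 24.9% at an unadjusted p under 0.05, and 1 of the 10 genes, Pvalb, was under that threshold. DESeq2 and limma-voom also called 0 of the 10, with 0 and 4 under the unadjusted threshold, although over all genes they called 337 and 1352. The median interaction was 0.02 over the 10 genes and -0.00 over all genes. For Pvalb the soleus difference exceeded the TA difference by 0.77 on the log2 scale (SE 0.356, 95% confidence interval 0.04 to 1.49; edgeR, unadjusted p = 0.0381, adjusted p = 0.177), the TA difference being below 0 and the soleus difference above it. This interaction was 1.42 and passed the test (edgeR, adjusted p = 0.00246) without WT soleus replicates 1 and 2, and was 1.15 without replicate 1 alone. Without those 2 libraries 1541 of all genes passed, against 0 in the main fit, so the Pvalb call was 1 of many. Ryr1 had the next largest interaction, -0.35 (SE 0.201, adjusted p = 0.263).

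The balance between paired members was compared within each library, since a ratio of 2 genes does not depend on the scaling of the library. Of 10 tests, over 5 ratios in 2 muscles, 1 passed after adjustment (exact permutation test over libraries, 2-sided, every assignment counted, Benjamini-Hochberg over the 10). In the soleus the log2 ratio of Cacna1s to Ryr1 counts was -1.99 ± 0.0573 in WT and -1.87 ± 0.0999 in ∆Ig3-MuSK (SD, n = 9), a difference of 0.12 (exact permutation p = 0.00444, adjusted p = 0.0444). The WT values ran from -2.07 to -1.90 and the ∆Ig3-MuSK values from -1.97 to -1.66, so the groups overlapped. The highest value was that of ∆Ig3-MuSK replicate 1, whose length index was -0.18. Replicates 2 and 9 of that group had lower indices, -0.28 and -0.20, with lower ratios than replicate 1. The part of the index in this ratio was not tested. Leaving out a single soleus library ended the call for 12 of the 18 (WT replicates 2, 3, 4, 5, 6, 8 and 9 and ∆Ig3-MuSK replicates 1, 4, 6, 7 and 9), with adjusted p between 0.0136 and 0.0757 over all single libraries left out. In the TA the same ratio differed in the other direction, by -0.29 (exact permutation p = 0.0151, adjusted p = 0.0757). With each library left out this TA difference ran from -0.34 to -0.20, the latter without WT TA replicate 5. Without WT TA replicates 3 and 5, low in long transcripts, it was -0.14.

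The ratio of Atp2a1 to Atp2a2 was 0.51 ± 0.449 on the log2 scale in WT soleus and 0.88 ± 0.189 in ∆Ig3-MuSK soleus, a difference of 0.37 toward the fast pump that did not pass (SD, n = 9; exact permutation p = 0.0394, adjusted p = 0.128). Its WT range, -0.04 to 1.37, contained the ∆Ig3-MuSK range, 0.58 to 1.12. Pvalb to Atp2a1 differed by 0.55 in the soleus (exact permutation p = 0.0594) and by -0.30 in the TA (exact permutation p = 0.0642), each with an adjusted p of 0.128. The TA value was -0.19 without WT TA replicate 5 and -0.10 without WT TA replicates 3 and 5. Casq1 to Casq2 differed by 0.14 in the soleus and -0.02 in the TA, and Sln to Pln by 0.21 and -0.37, with adjusted p of 0.298 or more for these 4. The soleus value of Casq1 to Casq2 was 0.22 without WT soleus replicate 1. That of Sln to Pln was 0.03 without ∆Ig3-MuSK soleus replicate 1 and -0.06 as a difference of medians. Without WT soleus replicates 1 and 2, 5 of the 10 ratio tests passed, among them Atp2a1 to Atp2a2 in the soleus at 0.56 (exact permutation, adjusted p = 0.00175) and Pvalb to Atp2a1 at 0.84 (exact permutation, adjusted p = 0.00350).

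Libraries of 1 group also differed from each other, and 5 pairs of genes were followed over the 9 libraries of each group (20 correlations of log2 CPM, exact permutation of pairings, 2-sided, adjusted over the 20). Pvalb followed Myh4 in the soleus of both genotypes. Pearson's r was 0.919 in WT (exact permutation p = 9.9e-05, adjusted p = 0.000992; Spearman's rho 0.883, adjusted p = 0.0205) and 0.874 without replicates 1 and 8. In ∆Ig3-MuSK it was 0.875 (exact permutation p = 4.1e-05, adjusted p = 0.000827; rho 0.967, adjusted p = 0.00331) and 0.902 without replicates 1 and 6. These are the values behind the plot of Pvalb against Myh4. Pvalb also followed Atp2a1 in WT soleus, with r = 0.924 (exact permutation, adjusted p = 0.00196; rho 0.85, adjusted p = 0.0304), but r was 0.565 in ∆Ig3-MuSK soleus (exact permutation, adjusted p = 0.187). In WT TA the r of this pair was -0.716 (exact permutation, adjusted p = 0.0838) and turned to 0.336 without replicates 3 and 5, so it rests on those libraries.

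Cacna1s and Ryr1, the coupled channels of the triad, varied together in 3 of the 4 groups by Pearson's r. It was 0.968 in WT TA (exact permutation, adjusted p = 0.00196) and 0.796 without replicates 3 and 5, with rho 0.767 (adjusted p = 0.0713). In ∆Ig3-MuSK TA it was 0.963 (exact permutation, adjusted p = 0.00196) and 0.899 without replicates 2 and 3, with rho 0.8 (adjusted p = 0.0553). In WT soleus it was 0.900 (exact permutation, adjusted p = 0.0061) and 0.910 without replicates 1 and 2, with rho 0.95 (adjusted p = 0.00353). The ∆Ig3-MuSK soleus had r = 0.623 (exact permutation, adjusted p = 0.146). Both transcripts are long, and the part of the length index in these values was not tested. Casq2 with Atp2a2 reached r = 0.713 in WT soleus (exact permutation, adjusted p = 0.0787; 0.343 without replicates 1 and 2), and Sln with Atp2a2 passed in none of the 4 groups.

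To show which transcripts were most like each member, deviations of log2 CPM from the group mean were correlated over the 36 libraries with those of 15437 genes, as a description without a test. Atp2a1 was most like Rabep2 (r = 0.946), Myh8 (0.921) and Pygm (0.891), and Atp2a2 like Gm43361 (0.891), Myh6 (0.850) and Myh7 (0.790). Casq1 came with Gm17224 (0.967), Gm6560 (0.812) and Ppp1r14c (0.794), and Casq2 with Fabp3-ps1 (0.741), Fabp3 (0.724) and Cx3cl1 (0.687). Pvalb was most like Gm44646 (0.970), Cib2 (0.923) and Tspan8 (0.918). For the triad genes, the closest were Gm26604 (0.979), Gm44408 (0.976) and Prrc2b (0.964) for Ryr1, Scn4a (0.943), Ubap2 (0.935) and Sptb (0.931) for Cacna1s, and Sox6 (0.876) and Gm28376 (0.871) for Jph1. For the regulators they were Bfar (0.694), Gm2011 (0.672) and Sgk3 (0.662) for Sln and Gm47644 (0.947), Kif4 (0.611) and Mvp (0.593) for Pln. Several of these overlap the member on the opposite strand, and reads without strand cannot be told apart there: Rabep2 with Atp2a1 over 763 exon bases, Gm43361 with Atp2a2 over 83, Gm47644 with Pln over 1644, Gm17224 with Casq1 over 156, Gm26604 and Gm44408 with Ryr1 over 864 and 50, and Gm28376 with Jph1 over 34. Cacna1s shares 1309 exon bases with Gm37759, and Sln, Casq2 and Pvalb share none. Libraries in these correlations share depth and RNA quality as well as genotype and muscle, which the group means take out only in part. Among the members themselves the closest pairs were Ryr1 with Cacna1s (r = 0.93), Atp2a1 with Jph1 (0.85) and Atp2a1 with Cacna1s (0.83).

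The wider calcium machinery was followed in a list of 72 further genes, of which 70 were found. Between genotypes, 0 of 66 tested were called in the TA, 0 of 68 in the soleus and 0 of 68 in the interaction by edgeR, with 18, 14 and 22 at an unadjusted p under 0.05, where 24.1%, 18.5% and 24.9% of all genes were. The median log2 difference over the list was -0.03 for the TA and -0.01 for the soleus. Between the muscles, 21 of 68 were higher and 24 lower in WT soleus (median -0.07), where 30.2% and 27.3% of all genes were, and 22 higher and 24 lower in ∆Ig3-MuSK soleus (median -0.04).

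Read against these shares, the counts by role describe the list and do not set it apart. Among the pumps and their regulators, Strit1, which encodes the small SERCA activator DWORF, was at 0 to 0.0867 CPM in WT TA, with at most 5 reads in a library, and at 8.10 to 12.05 CPM in WT soleus. Mrln, which encodes the SERCA inhibitor myoregulin, was lower in the soleus by -2.09 (SE 0.150) on the log2 scale, and the pump gene Atp2a3 was higher by 0.68. Of 13 partners of the release channel, 2 were higher (Ryr3 by 1.24 and Tmem38b by 0.73) and 3 lower, among them Trdn by -0.41 and Tmem38a by -0.32. The partners of the voltage sensor were lower in 4 of 5 cases, namely Cacng1 (-1.58), Cacna2d1 (-0.74), Stac3 (-0.74) and Cacnb1 (-0.63), although Cacna1s itself did not differ past the threshold. Of 7 junction and tubule genes, 3 were higher and 2 lower, with Trim72 at 1.39, Jph4 at 0.79, Jph2 at -1.12 and Sypl2 at -0.38, so that Jph2 was lower in the soleus like Jph1.

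The other routes of calcium were compared between the muscles in the same way in WT, where 57.5% of all genes were called. Among 6 genes of store-operated entry, Stim2 was lower by -1.62 and Orai1 higher by 0.29. Of 8 genes of mitochondrial uptake, 4 were higher and 1 lower, including the uniporter Mcu (0.45) and its gatekeepers Micu2 (1.17) and Micu3 (-1.95). In the group that extrudes calcium across the plasma membrane, 3 of 7 were higher and 3 lower, with the exchangers Slc8a3 at -1.80, Slc8a1 at -1.47 and Slc8a2 at 0.74 and the pump Atp2b3 at -1.39. The IP3 receptors Itpr2 (0.38) and Itpr3 (0.32) were higher and Itpr1 (-0.80) lower. Of 15 calmodulin and calcineurin genes, 3 were higher, Rcan1 (1.78) and Rcan2 (1.63) among them, and 8 lower, including Camk2a (-2.48) and Calm3 (-1.74). Of the 3 other cytosolic buffers 1 was tested, Calb1, which was higher by 0.76 at a mean of 0.264 CPM in WT soleus.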

How the data were processed

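RNA-seq was done on 36 muscle samples, 9 in each of 4 groups. Per the labels and the submitters' processing notes, libraries were made with the NEBNext Ultra kit and FastQC was used. Per the paper's methods, the libraries were non-stranded, and the authors trimmed reads with Trimmomatic, aligned them to mm10 (GRCm38) with GSNAP and used HTSeq for counting; tool versions, the annotation release and the counting mode are not given in the sources used here. The authors deposited whole-number counts, without normalization or a filter, for 51912 Ensembl IDs in 1 table per muscle, and 51633 of the IDs were matched to a symbol. Groups and replicate numbers came from the labels. The paper gives 1 muscle per animal, although 8 label numbers of each genotype occur in both muscles, and replicates were treated as separate animals. The 10 genes, the further lists and the tests were chosen with earlier results of these data known.

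Counts were fitted in R 4.3.3 with edgeR 4.0.16 (filterByExpr, TMM factors, glmQLFit and glmQLFTest, all genes). Genotypes were compared within each muscle, and the muscle contrasts and the interaction came from a fit of the 4 groups. Genes were called at an adjusted p under 0.05 and at least 1.2-fold, the interaction without a fold minimum. Levels are CPM with TMM factors over the 36 libraries, per kilobase of the longest GENCODE M21 transcript where genes are compared, and log2 CPM has a pseudocount of 0.5. Ratios and correlations were tested by exact permutation in SciPy 1.17.1. Totals ran from 43492062 to 78660422 counts per library, so counting error is small except for Sln, Pln and other genes of few reads in the TA. On simulated counts with 200 genes changed by 1 (log2), the test recovered 93% among 20075 genes in the TA. It recovered 91% among 19439 in the soleus and, for the interaction, 80.5% among 20841. The share of calls that fell on unchanged genes was 5.58%, 1.09% and 7.47% in the same order. The simulated counts were drawn independently around 1 mean per gene apart from these changes, without muscle differences or variation shared by the genes of a library. The rates therefore describe that simpler setting and not the real libraries. Recovery of smaller changes, such as the genotype differences of the 10 genes, was not tested. Alternatives were DESeq2 1.42.0, limma-voom (limma 3.58.1), other factors and filters, other sets of libraries, and libraries left out in turn. Added after seeing the data were the length index or Myh4 as a covariate and pairs of libraries left out. The named genes are the 10 members, Musk, up to 4 called genes per role of the wider list with the largest WT muscle difference, and the 3 genes most like each member, apart from genes that are not reported here. Markers named beside a result were chosen after their values were seen. The authors' own comparisons were not used.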

Additional observations from a re-analysis of the deposited data

Results flagged for a closer look

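Among 60 groups of 9 libraries (10 genes and 5 log2 ratios in 4 groups), 7 had a highest or lowest library whose gap to its neighbor took up a larger part of the group's range than Dixon's test allows at the 95% level. Chance alone gives about 1 such group in 20. In ∆Ig3-MuSK TA, replicate 4 held the most Atp2a2, 57.4 CPM, and it was also the library with the most Myh7 of that group, 38.2 CPM. Replicate 1 of that group stood apart with the most Casq1, 1795 CPM. Replicate 3, whose length index was the lowest of the group, was low in Ryr1 (2178 CPM) and in Jph1 (313 CPM) and had the highest log2 ratio of Cacna1s to Ryr1, -1.90. In ∆Ig3-MuSK soleus, replicate 1 had the highest log2 ratio of Sln to Pln, 4.21, and of Cacna1s to Ryr1, -1.66. No interaction of the 10 genes passed its test.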

How the results depend on the processing

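The 10 genes gave 1610 values under alternatives, of which 1524 kept their direction and side of the threshold, 0 lost a call, 6 gained one and 80 changed sign, nearly all from values near 0. The muscle contrasts called 8 of 10 under every alternative, and the genotype comparison in the TA called 0 under every alternative. In the soleus genotype comparison the count was 1 with limma-voom (Atp2a1), 2 without WT soleus replicates 1 and 2 (Atp2a1 and Pvalb) and 0 to 1 with each library left out (1 without WT soleus replicate 1, Pvalb). In the interaction it was 1 without WT soleus replicates 1 and 2 and 0 to 1 with each library left out, again Pvalb. The ratio tests passed in 0 to 4 of 10 with each library left out (4 without WT soleus replicate 1), in 5 without WT soleus replicates 1 and 2 and in 1 without WT TA replicates 3 and 5. Pearson's correlations passed in 6 of 20 on log2 CPM, on CPM and with RLE factors. By Spearman's rho fewer passed, since Cacna1s with Ryr1 did not pass in either TA group (exact permutation, adjusted p = 0.0713 in WT and 0.0553 in ∆Ig3-MuSK). Where no value shows the cause, the cause was not tested.

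Over all genes, the TA genotype calls (3) became 7 with upper-quartile factors, 10 without a filter, 165 with DESeq2, 150 with limma-voom, 692 in the fit of 36 libraries and 3 to 9 with each library left out. The soleus calls (185) became 488 with DESeq2, 653 with limma-voom, 312 in the fit of 36 libraries, 75 with the length index, 1240 without WT soleus replicates 1 and 2, 1 with Myh4, and from 22 (without WT soleus replicate 5) to 602 (without WT soleus replicate 1) with each library left out. The interaction calls (0) became 4 with at least 10 counts in every library, 337 with DESeq2, 1352 with limma-voom, 1541 without WT soleus replicates 1 and 2, and 0 to 1450 with each library left out (1450 without WT TA replicate 9).

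Changes of sign in the TA genotype comparison were Sln without a filter (-0.0012) and, with the length index, Atp2a1 (-0.0743), Atp2a2 (-0.0332), Ryr1 (-0.0292), Cacna1s (-0.0641) and Jph1 (-0.0397). In the soleus Pln went to 0.0029 with upper-quartile factors, 0.0153 with limma-voom, 0.0112 in the fit of 36 libraries, 0.0149 with the length index and 0.11 with Myh4. Casq1 went to 0.005, 0.0093 and 0.0094 under the first 3 of these and 0.0554 without WT soleus replicates 1 and 2, and Ryr1 to -0.0408 with Myh4. Without WT TA replicates 3 and 5 the WT muscle difference was -0.0629 for Ryr1 and -0.0287 for Cacna1s. The interaction of Cacna1s went to 0.0022 with RLE factors, 0.0021 without a filter, 0.0022 with DESeq2, 0.0456 with limma-voom, 0.20 with the length index, 0.0412 without WT soleus replicates 1 and 2 and 0.0873 without WT TA replicates 3 and 5. With the length index the interaction of Sln was -0.0086 and that of Ryr1 0.0832. With each library left out, interactions ran from -0.0461 to 0.0507 for Cacna1s, -0.0751 to 0.0638 for Casq2 and -0.0004 to 0.0836 for Jph1. The TA difference of Sln ran from -0.16 to 0.12, the soleus differences of Casq1 from -0.0285 to 0.0325, of Pln from -0.0754 to 0.0806 and of Ryr1 from -0.0107 to 0.0384, and the TA ratio of Casq1 to Casq2 from -0.0929 to 0.0617.

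The numbers in the labels were tried as a block in 2 ways. With the replicate number as the replicate block, 0 of 10 genes were called between genotypes in either muscle, while over all genes there were 0 calls (TA) and 347 (soleus). With the replicate block by label number, which links TA and soleus libraries, 8 of 10 were called in each muscle contrast, and limma-voom called 9 genes in the interaction. Under these blocks the sign changed for Sln in the TA (-0.057), Pln in the soleus (0.0321) and the interaction of Casq2 (0.0035). Deviations of WT and ∆Ig3-MuSK libraries of 1 replicate number correlated at -0.239 to 0.642 in the TA and -0.392 to 0.481 in the soleus, and a library correlated best with its own number in 1 of 18 and 3 of 18 cases, so replicate numbers did not pair the samples. Those of TA and soleus libraries of 1 label number correlated at 0.0236 to 0.210 in WT (4 of 8 over 0.1) and 0.0609 to 0.467 in ∆Ig3-MuSK (7 of 8 over 0.1), and best with their own number in 7 of 16 and 12 of 16 cases. This is a hint from the data of shared deviations, but not every pair was over 0.1, and the samples were not treated as paired. Sln and Pln had few reads in the TA, so their TA differences carry counting error of their own.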

Other observations

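Atp2a2 and the heart and slow-fiber myosin genes varied together within groups, without a test. In the ∆Ig3-MuSK TA, the library with the most Atp2a2 (replicate 4, 57.4 CPM) had 38.2 CPM of Myh7 against a group median of 6.07 CPM. Myh2, the myosin of fast oxidative fibers, was at 415 to 728 CPM in WT TA and 6995 to 10010.3 CPM in WT soleus, so the soleus held slow and fast oxidative transcripts side by side with its Atp2a1.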
